A study of Mus musculus with 5 samples.

Results

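The Hippo pathway genes Amot, Amotl1, Amotl2, Yap1, Wwtr1, Tead1, Tead2, Tead4, Lats1 and Lats2 were described in mouse ES cells with and without C3G. They were chosen by name for their place in the pathway, with earlier results of these data known. They are 10 genes of the 55147 gene symbols in the data. Total RNA was sequenced from E14Tg2a cells, an ES cell line from mouse embryos, in 3 WT and 2 C3G null samples. All samples were untreated and were grown on gelatin in medium with serum and LIF. WT cells were the parental line with an intact C3G gene (Rapgef1), which encodes a guanine nucleotide exchange factor for small GTPases of the Ras family. C3G null cells carried a CRISPR knock-in in which a puromycin cassette replaced early exons of C3G. The study derived several null clones, and the labels do not say which clone each C3G null sample came from. The study calls the samples of each group independent, but neither it nor the labels say whether they were separate cultures, so p-values measure the spread between these samples.

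In the Hippo pathway, the kinases MST1/2 (Stk4 and Stk3) activate the kinases LATS1 and LATS2, which phosphorylate the coactivators YAP (Yap1) and TAZ (Wwtr1) and keep them out of the nucleus. In the nucleus YAP and TAZ bind the TEAD factors and turn on genes such as Ccn1, Ccn2 and Ankrd1. Angiomotins (Amot, Amotl1, Amotl2) are junction and actin binding proteins that hold YAP and TAZ in the cytoplasm and promote their phosphorylation by LATS. Amotl2 and Lats2 are themselves known targets of YAP and TEAD. In the early mouse embryo the pathway is known for its part in setting trophectoderm apart from the inner cell mass, with Tead4 and Cdx2 on the trophectoderm side.

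The levels below are TPM (abundances on a scale of equal total per sample) summed by gene and divided by a median-of-ratios size factor, called scaled TPM. The factor sets the median gene to the same level in every sample. Small RNAs took 63.1 to 67.5% of all TPM in WT cells, against 78.4 and 69.8% in C3G null cells. As deposited, the median log2 fold change of all genes was -0.55 (C3G null minus WT), against 0.0052 after scaling. The split of calls moved with it, from 1760 higher and 2083 lower genes after scaling to 181 higher and 7109 lower genes as deposited. With TPM scaled to protein-coding genes it was 707 higher and 3732 lower. Fold changes were taken on log2(scaled TPM + 1), which understates the change of genes with low values. They were tested across 12518 genes with limma's moderated test, two-sided and adjusted by the Benjamini-Hochberg method. Its prior degrees of freedom, the weight given to variance pooled over genes, were 3.11 after scaling but infinite as deposited. P-values and counts of calls as deposited are therefore not directly comparable with those after scaling. Read counts were not used here, so the depth is unknown. Rapgef1 itself had scaled TPM of 8.67, 8.46 and 8.75 in WT and 6.35 and 6.14 in C3G null cells, 72.3% of WT (adjusted p = 0.0044). Its sum covers the whole gene and not only the replaced exons, and with a correction for length and GC content, described below, Rapgef1 did not pass (adjusted p = 0.239). In these bulk samples, fewer cells that express a gene and less RNA per cell cannot be told apart.

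Of the 10 genes, 8 were lower in C3G null cells, Tead2 was higher and Lats1 did not pass the test. Among all tested genes 16.6% were called lower and 14.1% higher. The angiomotins Amotl1 and Amotl2 had the steepest falls on the log2(scaled TPM + 1) scale, to 24.1 and 34.3% of WT. The median log2 fold change of the 10 genes was -0.63. All 10 genes passed the filter of 1 TPM in at least 2 samples, but Lats2 passed it through the WT samples alone and could be tested only because it was higher there than in C3G null cells. With no filter 7 genes were called lower and none higher, against 5.74 and 4.33% of the genes then tested, most of which are barely expressed. The samples did not overlap between groups for 8 genes that were lower, against 29.3% of all tested genes, and for 1 gene that was higher, against 29.5%.

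**Figure D1:**
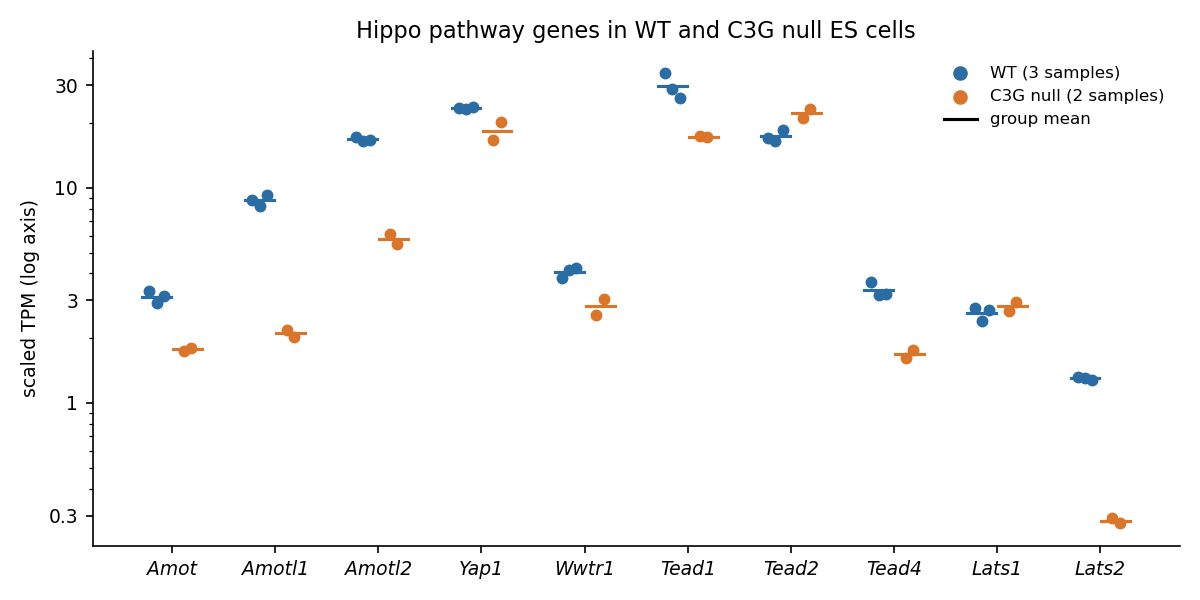
Scaled TPM on a log axis for each of the 10 genes, with 1 point per sample and a line at each group mean. The C3G null points of Amotl1, near 2.03 and 2.19, lie far under the WT points from 8.26 to 9.29, while those of Lats1 overlap with WT and those of Tead2 lie above.

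The promoters of Amotl1, Amotl2 and Lats2, the members that fell most, are shown with those of 2 target genes that hold the motif, Ccn1 and Ankrd1. They are 300-base windows from RefSeq (GRCm38.p6), from 250 bases before to 50 bases after an annotated start, each written 5′ to 3′ on the strand of its gene. Capitals mark GGAATG or its reverse complement CATTCC, the letters of the TEAD binding motif, which was searched on both strands. Of 32851 such windows of all genes, 14.7% hold it. The windows are Amotl1 at chr9:14614951-14615250 (minus strand), Amotl2 at chr9:102717554-102717853 (plus strand), Lats2 at chr14:57746074-57746373 (minus strand), Ccn1 at chr3:145649936-145650235 (minus strand) and Ankrd1 at chr19:36119795-36120094 (minus strand).
Amotl1: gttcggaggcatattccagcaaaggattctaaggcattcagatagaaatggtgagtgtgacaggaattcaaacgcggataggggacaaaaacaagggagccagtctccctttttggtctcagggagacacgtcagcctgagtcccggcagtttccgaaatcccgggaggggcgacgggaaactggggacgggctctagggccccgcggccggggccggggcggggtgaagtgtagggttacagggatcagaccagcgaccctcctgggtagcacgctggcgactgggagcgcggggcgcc
Amotl2: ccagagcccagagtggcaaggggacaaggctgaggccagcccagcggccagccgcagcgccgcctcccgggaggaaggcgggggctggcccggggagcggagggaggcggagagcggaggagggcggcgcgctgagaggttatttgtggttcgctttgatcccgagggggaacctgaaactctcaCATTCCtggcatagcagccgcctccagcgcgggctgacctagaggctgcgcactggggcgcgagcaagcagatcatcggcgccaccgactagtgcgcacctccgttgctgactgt
Lats2: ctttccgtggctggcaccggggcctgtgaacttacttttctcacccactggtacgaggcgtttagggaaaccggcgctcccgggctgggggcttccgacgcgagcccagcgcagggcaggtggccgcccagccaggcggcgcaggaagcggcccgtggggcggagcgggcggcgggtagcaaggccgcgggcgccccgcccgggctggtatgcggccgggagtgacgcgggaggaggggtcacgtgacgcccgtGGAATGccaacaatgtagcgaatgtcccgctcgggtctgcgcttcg
Ccn1: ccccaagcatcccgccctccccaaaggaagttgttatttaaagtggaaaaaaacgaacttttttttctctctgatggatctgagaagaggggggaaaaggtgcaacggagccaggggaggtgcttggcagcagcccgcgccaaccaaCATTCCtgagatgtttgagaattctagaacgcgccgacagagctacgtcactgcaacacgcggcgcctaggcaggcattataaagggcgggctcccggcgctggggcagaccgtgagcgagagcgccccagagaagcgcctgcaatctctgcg
Ankrd1: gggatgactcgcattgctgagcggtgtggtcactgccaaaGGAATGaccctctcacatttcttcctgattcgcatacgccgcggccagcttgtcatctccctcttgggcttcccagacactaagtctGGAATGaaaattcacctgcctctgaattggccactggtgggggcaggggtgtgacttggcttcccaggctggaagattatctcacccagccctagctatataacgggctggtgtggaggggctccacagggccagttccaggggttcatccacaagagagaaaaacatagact
Counted from the annotated start, the motif began at base -65 in Amotl2, at -103 in Ccn1, at 5 in Lats2 and at -210 and -123 in Ankrd1. The Amotl1 window holds neither form, which says only that these letters are not in these 300 bases. Windows were found for 8 of the 10 genes, 10 windows in all, and 5 of them held the motif, in Amotl2, Yap1, Lats2 and in both overlapping windows of Wwtr1. A second Lats2 window, chr14:57734369-57734668, did not hold it, and neither did those of Amot, Amotl1, Tead2 and Lats1. Of the YAP/TAZ target genes described below, 13 had a window, and 5 of their 14 windows held the motif, in Ccn1, Ankrd1, Ptpn14, Axl and Crim1. A match is a description of the letters and no evidence of binding.

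The angiomotins fell together but not by the same amount. Amotl1 (chr9:14541966-14645056) had scaled TPM of 8.73, 8.26 and 9.29 in WT and 2.19 and 2.03 in C3G null cells. Every C3G null value was under every WT value, and the mean was 4.15-fold lower. Its log2 fold change was -1.65 (SE 0.072, limma adjusted p = 0.00012), and only 0.455% of tested genes had a fold change at or below it. The study marked Amotl1 in a plot of these same samples, so its direction here is not independent evidence. Amotl2 (chr9:102716672-102733418), the most abundant angiomotin, had scaled TPM of 17.3, 16.5 and 16.7 in WT and 6.09 and 5.46 in C3G null cells. That is a 2.92-fold lower mean, with a log2 fold change of -1.40 (SE 0.069, limma adjusted p = 0.00017). Amot (chrX:145446425-145505181) had scaled TPM of 3.32, 2.91 and 3.14 in WT and 1.75 and 1.80 in C3G null cells. Its mean fell to 56.8% of WT, with a log2 fold change of -0.57 (SE 0.073, limma adjusted p = 0.0031). Log2 fold changes of -1 or below were found in 1.97% of tested genes, and among the angiomotins Amotl1 and Amotl2 had them.

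The coactivators fell less. Yap1 (chr9:7931999-8004596) had scaled TPM of 23.6, 23.1 and 23.6 in WT and 16.6 and 20.2 in C3G null cells. The C3G null samples lay below WT but apart from each other. Its log2 fold change was -0.34 (SE 0.091, limma adjusted p = 0.035), the weakest call among the genes that were lower. Without any 1 of the 3 WT samples the log2 fold change was between -0.36 and -0.34 and the call was lost (limma adjusted p from 0.0695 to 0.0871). Without C3G null sample 1 it was -0.21 (limma adjusted p = 0.115), and after the length and GC correction -0.22 (0.0798). The call was also lost with no filter (0.0743). Wwtr1 (chr3:57455649-57575910), which encodes TAZ, had scaled TPM of 3.83, 4.15 and 4.23 in WT and 2.57 and 3.05 in C3G null cells. It was at 69.1% of WT, with a log2 fold change of -0.41 (SE 0.082, limma adjusted p = 0.014), and without C3G null sample 1 the limma adjusted p was 0.0587.

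The TEAD factors, which carry YAP and TAZ to DNA, did not move the same way. Tead1 (chr7:112679318-112906807), the most abundant of the 10 genes in WT, had scaled TPM of 34.1, 28.9 and 26.2 in WT and 17.4 and 17.2 in C3G null cells. Tead4 (chr6:128224288-128300823) had scaled TPM of 3.64, 3.18 and 3.21 in WT and 1.62 and 1.76 in C3G null cells. Both were lower in every C3G null sample, at 58.1 and 50.5% of WT. The log2 fold change was -0.74 for Tead1 (SE 0.11, limma adjusted p = 0.0057) and -0.69 for Tead4 (SE 0.078, limma adjusted p = 0.0020). Tead2 (chr7:45215753-45233644) had scaled TPM of 17.1, 16.5 and 18.6 in WT and 21.1 and 23.2 in C3G null cells. It was higher in both C3G null samples, at 128% of WT, with a log2 fold change of 0.33 (SE 0.081, limma adjusted p = 0.025). As deposited, Tead2 had the opposite sign (-0.33, limma adjusted p = 0.250), and with protein-coding TPM it was 0.12 (limma adjusted p = 0.324). After median-of-ratios scaling the call was lost with no filter (limma adjusted p = 0.0537) and without WT sample 1 (0.32, adjusted p = 0.0615), WT sample 2 (0.29, adjusted p = 0.0989) or C3G null sample 2 (0.27, adjusted p = 0.104). In WT cells the order of levels was Tead1, Yap1, Tead2, Amotl2, Amotl1, Wwtr1, Tead4, Amot, Lats1 and Lats2. The ranges of Tead2 and Amotl2, and of Tead4 and Amot, overlapped. In C3G null cells Tead2 came first, and Yap1 and Tead1 followed with overlapping ranges.

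The kinase genes Lats1 and Lats2 differed from each other. Lats1 (chr10:7681214-7716460) had scaled TPM of 2.77, 2.40 and 2.69 in WT and 2.69 and 2.94 in C3G null cells. The groups overlapped, and the log2 fold change of 0.076 (SE 0.078, limma adjusted p = 0.497) did not pass. Its sign was negative as deposited (-0.42, limma adjusted p = 0.0736). Lats2 (chr14:57689662-57758388) had scaled TPM of 1.32, 1.31 and 1.28 in WT and 0.291 and 0.276 in C3G null cells, 21.8% of WT. Its log2 fold change was -0.84 (SE 0.075, limma adjusted p = 0.00093), and the ratio of means without a pseudocount was -2.20 on the log2 scale. Before scaling its C3G null values were 0.18 and 0.25 TPM, so these rest on low signal.

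**Figure D2:**
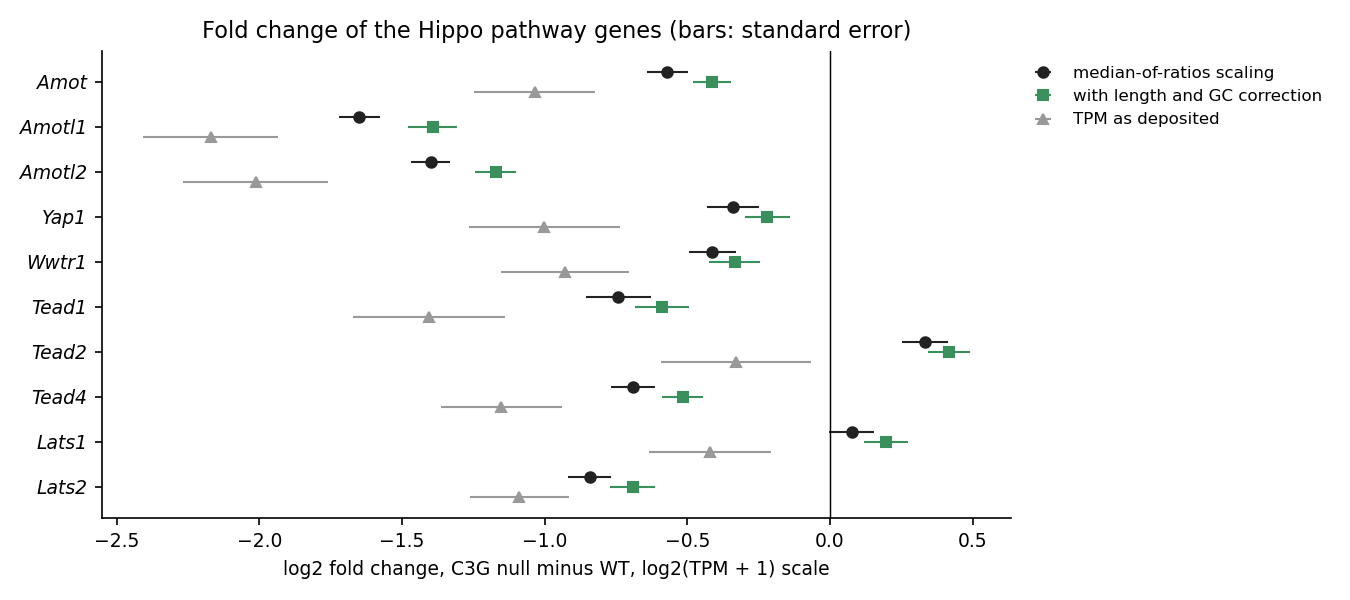
Log2 fold change (C3G null minus WT, on log2(TPM + 1)) of each gene with its standard error, after median-of-ratios scaling, after a further length and GC correction, and for TPM as deposited. Amotl1 and Amotl2 lie furthest to the left under all 3, and Tead2 and Lats1 change sign between scaled TPM and TPM as deposited.

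Fold changes depended on transcript length across all genes, with a Spearman correlation of -0.314 over tested genes, which are not independent replicates and share libraries. After a correction for length and GC content it was 0.028. With that correction 7 of the 10 genes were called lower and Tead2 higher, against 14.2 and 16.7% of all tested genes. Amotl1 had a log2 fold change of -1.39, Amotl2 of -1.17, Lats2 of -0.69, Tead1 of -0.59, Tead4 of -0.52, Amot of -0.41 and Wwtr1 of -0.33. As deposited, 8 of the 10 genes were called lower and none higher, against 56.8% called lower and 1.45% called higher among all tested genes. The part of length or small RNA content in these results was not tested.

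The share of each paralogue within its family does not depend on the scaling of a sample. The TEAD family turned from mostly Tead1 to mostly Tead2. Of the summed TPM of Tead1 to Tead4, Tead1 held 55.2 ± 3.67% in WT (SD, n = 3) and 40.6 ± 1.65% in C3G null cells (SD, n = 2). Tead2 held 32.5 ± 3.55% in WT and 52.0 ± 1.79% in C3G null cells, and every C3G null sample was above every WT sample. Tead3 held 6.15% in WT and 3.45% in C3G null cells, and Tead4 held 6.22 and 3.96%. Lats1 held 66.8 ± 1.74% of the Lats1 and Lats2 sum in WT and 90.8 ± 0.843% in C3G null cells, and Lats2 fell from 33.2 to 9.19%. Among the angiomotins, Amotl1 went from 30.5 to 21.8% and Amot from 10.9 to 18.4%, while Amotl2 stayed in overlapping ranges at 58.7 and 59.7%. Yap1 held 85.2% of the Yap1 and Wwtr1 sum in WT and 86.7% in C3G null cells. For 10 of the 11 shares the groups did not overlap and the exact permutation test gave a two-sided p of 0.2 (adjusted 0.22), the smallest this design can give over its 10 splits. For Amotl2 the exact p was 0.6. This permutation test could not go below 0.05 for any share. Shares within a family sum to the whole, so those of Yap1 and Wwtr1 mirror each other, as do those of Lats1 and Lats2. The 11 shares are therefore not separate results. No such shares were computed for other families. For scaled TPM of single genes, the groups did not overlap for 29.3% of tested genes that were lower and 29.5% that were higher.

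**Figure D3:**
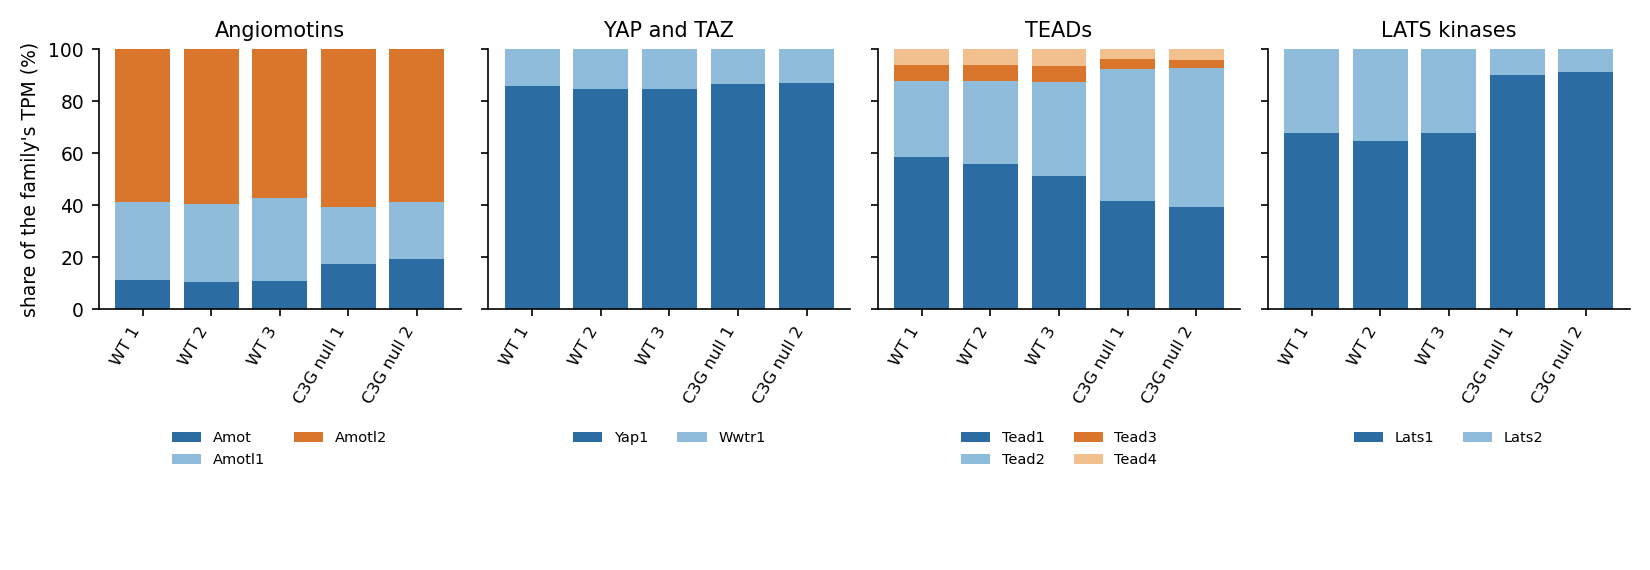
Share of each paralogue in the summed TPM of its family (percent), with 1 stacked bar per sample. Tead2 goes from between 29.3 and 36.3% in WT to 50.7 and 53.3% in C3G null cells, and Lats2 from between 32.2 and 35.3% to 9.78 and 8.59%.

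The table lists TPM by transcript, and the falls of the angiomotins were spread over their transcripts. Amotl1-201, a protein-coding transcript, held 64.7% of Amotl1 TPM in WT and 71.3% in C3G null cells, and its scaled TPM was at 26.6% of WT. Amotl1-206 was at 26.1% of WT. Amotl2-201, the main Amotl2 transcript, was at 41.8% of WT, and Amotl2-211 and Amotl2-208 were listed at 0 in both C3G null samples. Tead1-202, the main Tead1 transcript, was at 60.9% of WT. Tead1-203 was at 99.0% of WT, and its share of Tead1 rose from 8.15 to 13.7% with no overlap between groups. Tead1-201 and Tead1-204 were listed at 0 in both C3G null samples. Amot-201 was at 55.0% of WT, and Amot-202 varied widely in C3G null cells, with 0.10 and 0.56 TPM. Lats2-201 had TPM of 1.14, 1.03 and 0.95 in WT and 0.07 and 0.16 in C3G null cells. Transcripts of 1 gene share sequence, so values of single transcripts, and those of paralogues, rest on how the authors' tool divided reads.

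Lats2 lies on chromosome 14, where most genes were lower. Of 441 tested genes on that chromosome 250 were called lower and 29 higher, with a median of 65.4% of WT. On the other chromosomes the median was 100.9%, with 1833 lower and 1731 higher. The 10 tested genes on each side of Lats2 had a median log2 fold change of -0.59, and 17 of these 20 were called lower and none higher. Within 2 Mb of Lats2, 31 of 35 genes were called lower. The nearest tested genes were Xpo4, a nuclear transport receptor gene with scaled TPM of 15.8, 15.6 and 16.4 in WT and 10.2 and 10.2 in C3G null cells, and Sap18, a corepressor subunit gene with scaled TPM of 46.5, 48.5 and 47.5 in WT and 31.7 and 35.5 in C3G null cells. As a percent of WT, Lats2 (21.8%) was below each of its 20 neighbours, whose lowest was at 35.6% and whose median was at 58.1%. On the log2(scaled TPM + 1) scale it was 0.25 below the neighbours' median. That difference depended on the pseudocount, with 0.080 above the median at a pseudocount of 5 and -1.10 at 0.1. The effect of C3G on Lats2 and that of its chromosome region cannot be told apart here. For the other 9 genes the median log2 fold change of their 20 neighbours was between -0.041 and 0.17. The highest median was that around Tead2, whose neighbours had a median of 114.8% of WT. Of those 20 neighbours, 15 were at or below Tead2 as a percent of WT.

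**Figure D4:**
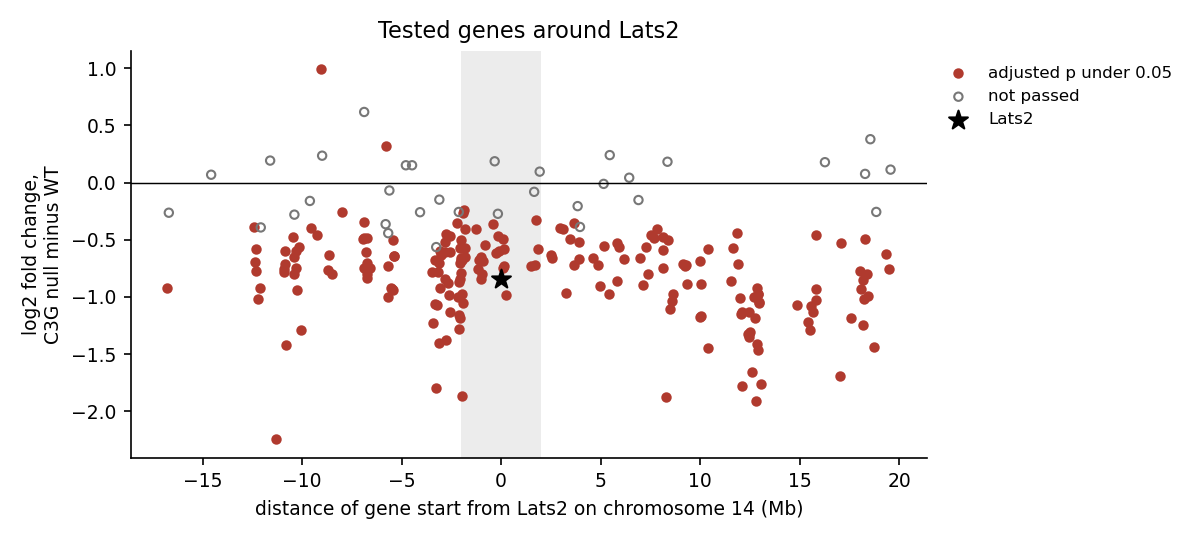
Log2 fold change (C3G null minus WT) of tested genes on chromosome 14 against the distance of their start from that of Lats2 in Mb, with the 2 Mb window on each side shaded and filled points for genes that passed the test. Lats2 (star, -0.84) lies among neighbours with a median of -0.59, and most filled points are below 0.

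The genes with the pattern most like that of Amotl1, by Euclidean distance over the 5 samples of centred log2(scaled TPM + 1), were Plaur, the urokinase receptor, Wnt7b, a Wnt ligand, and Slc39a14, a metal ion transporter. Their log2 fold changes were -1.70, -1.68 and -1.66. Wnt7b was at 15.7% of WT, Plaur at 27.6% and Slc39a14, which lies on chromosome 14, at 28.8%.

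Known YAP/TAZ target genes were lower. Of a list of 20 such genes without Amotl2 and Lats2, 16 were tested, 14 were called lower and none higher by limma, with a median log2 fold change of -0.94. None was higher at an unadjusted p under 0.05 either. Among all tested genes 16.6% were called lower and 14.1% higher. This list was chosen with earlier results of these data known. Dock5, 1 of the target genes called lower, lies on chromosome 14. Of the 16, 4 had under 1 TPM in both C3G null samples and so passed the filter through WT alone. All 4 were among the 14 called lower, and they could only be called lower. With a filter on mean TPM over all samples, under which 15.7% of all tested genes were lower and 14.1% higher, 13 of 15 were lower. Still, 3 of these 15 had under 1 TPM in both C3G null samples, so that filter did not remove the selection through WT. With no filter 15 of 20 target genes were lower, against 5.74% of all genes then tested. With the length and GC correction 13 of 16 were lower, against 14.2% of all tested genes. Over all 20 listed genes, C3G null values were below every WT value for 19. That held for 20.9% of all genes with no filter, most of which are barely expressed, and for 29.3% of tested genes. Nuak2 overlapped, with a log2 fold change of -0.068.

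Ccn1 (Cyr61), a secreted matrix protein gene, had scaled TPM of 13.1, 12.2 and 12.8 in WT and 1.62 and 1.49 in C3G null cells. It was at 12.2% of WT, with a log2 fold change of -2.42 (SE 0.065, limma adjusted p = 2.4e-05). Ccn2 (Ctgf), a related matrix protein gene, was at 48.2% of WT, with scaled TPM from 12.9 to 14.1 in WT and of 6.35 and 6.61 in C3G null cells. Igfbp3, an IGF binding protein gene, had scaled TPM from 14.2 to 14.5 in WT and of 3.90 and 4.54 in C3G null cells (log2 fold change -1.55). Axl, a receptor tyrosine kinase gene, had scaled TPM from 2.64 to 3.85 in WT and of 0.372 and 0.398 in C3G null cells (log2 fold change -1.60). It passed the filter through WT alone. Gadd45a, a stress response gene, and Myof, a membrane repair protein gene, fell less, to 71.0 and 65.6% of WT. Ankrd1, whose promoter window is shown above, was under the filter, with scaled TPM from 0.578 to 0.805 in WT and of 0.032 and 0.033 in C3G null cells. Ptpn14, a phosphatase that binds YAP and is also listed with the junction proteins below, had scaled TPM of 17.3, 17.2 and 15.4 in WT and 4.78 and 4.83 in C3G null cells (log2 fold change -1.60).

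The other TEAD factor and the VGLL cofactors, which bind TEADs in place of YAP, were also lower where tested. Tead3 was at 44.4% of WT (log2 fold change -0.80), Vgll3 at 23.0% (-1.27) and Vgll4 at 43.6% (-0.86). Vgll1 and Vgll2 were under the filter, with at most 0.109 scaled TPM in any sample. Vgll3 passed the filter through WT alone.

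Regulators upstream of LATS and YAP are given beside the 16.6% of all tested genes called lower and the 14.1% called higher. Of 14 junction and polarity genes, 12 were tested and 6 were lower by limma, none higher and none higher at an unadjusted p under 0.05, with a median log2 fold change of -0.31. After the length and GC correction 4 were lower, against 14.2% of all tested genes, and the median was -0.14. Pard3 (limma adjusted p = 0.055) and Dlg5 (0.236) then did not pass. Ptpn14 and Ajuba, a LIM protein that binds LATS, fell most in this list. Ajuba had scaled TPM of 31.7, 32.5 and 31.9 in WT and 11.2 and 11.8 in C3G null cells (log2 fold change -1.40), and it too lies on chromosome 14. Dlg5, called lower at 64.2% of WT, is also on that chromosome. Patj, a polarity scaffold gene, was at 55.4% of WT, Pard3, a polarity protein gene, at 70.8% and Ctnna1, the gene of alpha-catenin, at 76.6%. The study plotted these last 3 genes from the same samples too, so their direction is not independent evidence either. Of 21 upstream kinases and adaptors, 20 were tested and 4 were lower by limma, none higher and 2 higher at an unadjusted p under 0.05, with a median of -0.079. That count is near the share over all tested genes. The 4 were Frmd6, an adaptor gene at 56.0% of WT, and the kinase genes Map4k3 at 66.0%, Map4k5 at 66.4% and Map4k4 at 80.1%. With the length and GC correction this list had 3 lower and 4 higher, again near the 14.2 and 16.7% of all tested genes.

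The STRIPAK phosphatase complex counteracts MST kinases. Of its 11 genes, 10 were tested, 3 were lower and 1 was higher, with a median log2 fold change of -0.12. After the length and GC correction 2 were lower and 2 higher, against 14.2 and 16.7% of all tested genes, with a median of -0.0091. Slmap, which lies on chromosome 14, was at 80.0% of WT, Strn3 at 83.0% and Strn at 81.3%, while Sike1 was at 135% of WT (log2 fold change 0.37). Of 11 ubiquitin ligases, tankyrases and a deubiquitinase that act on angiomotins, LATS or YAP, none passed limma's test in either direction. At an unadjusted p under 0.05, 2 of them were lower and none higher. After the length and GC correction none of these 11 was called lower and 1 was called higher, against 14.2 and 16.7% of all tested genes. These 4 upstream lists and the TEAD3 and VGLL list together, 62 genes with 56 tested, had 16 lower and 1 higher with a median of -0.12. Among all tested genes 16.6% were lower and 14.1% higher. After the length and GC correction the same lists had 12 lower and 7 higher, with a median of -0.018, against 14.2 and 16.7% of all tested genes. As deposited 43 were lower and none higher, against 56.8 and 1.45% of all tested genes.

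**Figure D5:**
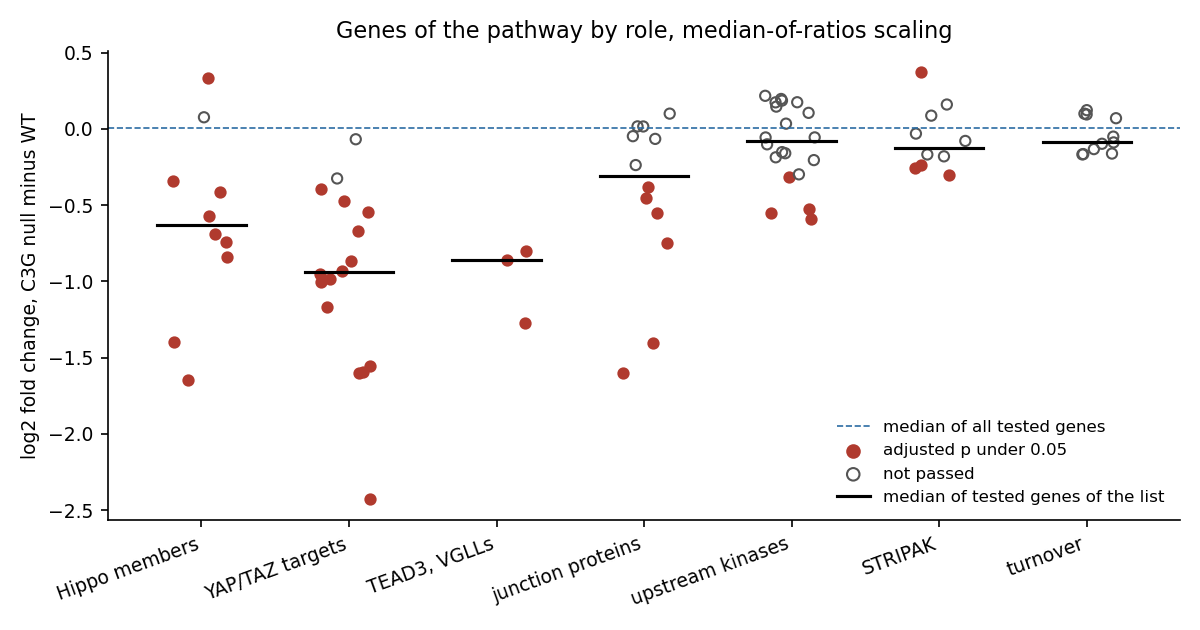
Log2 fold change (C3G null minus WT) of each tested gene by its role in the pathway, with filled points for an adjusted p under 0.05, a line at each list's median and a dashed line at the median of all tested genes (0.0052). The medians of the YAP/TAZ targets (-0.94) and of the 10 Hippo genes (-0.63) lie well below those of the upstream kinases (-0.079) and the turnover genes (-0.089).

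Summed scaled TPM of cell type markers differed between the groups, though not every gene of a list did. The summed scaled TPM of 6 ES cell markers (Pou5f1, Sox2, Nanog, Esrrb, Zfp42 and Dppa5a) was between 1509 and 1919 in WT and 2693 and 2371 in C3G null cells, with all 6 expressed. Of these only Dppa5a passed the test, and it carried most of the sum. The other 5 summed to between 528 and 628 in WT and 666 and 655 in C3G null cells. These rises depended on the scaling. As deposited, 5 of the 6 ES cell markers had log2 fold changes below 0 and none was called. Their median was then -0.48, against -0.55 for all tested genes. The 6 trophectoderm markers (Cdx2, Eomes, Gata3, Elf5, Krt7 and Hand1) summed to between 6.70 and 7.34 in WT and 2.69 and 2.94 in C3G null cells. Of the 3 tested, Cdx2 (log2 fold change -0.74) and Krt7 (-1.46) were lower and Eomes (0.021) did not pass. Cdx2 and Krt7 passed the filter through WT alone, so they could only be called lower. With the filter on mean TPM 1 of 2 tested genes was lower, Krt7, which again entered through WT alone. The 6 fibroblast markers (Col1a1, Col1a2, Col3a1, Thy1, Pdgfrb and Lum) summed to between 3.61 and 4.34 in WT and 1.68 and 1.64 in C3G null cells. Both tested genes, Thy1 (-0.36) and Col1a1 (-0.96), were lower, but Col1a1 passed the filter through WT alone and could only be called lower, and Lum was listed at 0 in 4 of the 5 samples. The 6 endoderm markers (Gata4, Gata6, Sox17, Sox7, Pdgfra and Dab2) summed to between 3.64 and 3.74 in WT and 6.72 and 9.05 in C3G null cells, and the tested gene Dab2 was higher (0.69). The part of other cell types in the results for the Hippo genes was not tested.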

How the data were processed

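The deposited table holds TPM per Ensembl transcript for 5 samples, 3 WT and 2 C3G null. The submitters' processing notes name bcl2fastq 2.20, FastQC 0.11.7, STAR 2.5.1b and RSEM 1.2.31, with GRCm38 (mm10), and the authors' TPM summed to between 999998 and 1000001 per sample. Of 142647 transcripts, 141524 matched GENCODE M21 and were summed by symbol. Columns of per-sample values not used numbered 0.

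TPM were divided by median-of-ratios size factors, genes with at least 1 TPM in at least 2 samples were kept, and log2(scaled TPM + 1) was tested with limma 3.58.1 (R 4.3.3) with a mean-variance trend, adjusted over 12518 genes at a threshold of 0.05. The prior degrees of freedom were 3.11, and infinite for TPM as deposited. The scripts were tested on simulated data. The length and GC correction subtracted a loess trend (span 0.5) from each sample.

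The 10 genes and all lists were chosen with earlier results of these data known. Named genes are the 10 genes and their transcripts of at least 0.5 TPM, from each list the 3 genes that rose most and the 3 that fell most past the threshold, list members past it with at least 10 TPM, lists of 6 genes or fewer whole, 3 genes most like Amotl1, Rapgef1, and the nearest gene on each side of Lats2. Nuak2, Ankrd1, Dlg5 and Dock5 were named after their values were seen. A filter on mean TPM over all samples (at least 1) and log2 ratios without a pseudocount were added after seeing the data. Without a C3G null sample, the lone sample left was assumed to vary like WT. Promoter windows are from RefSeq.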

Additional observations from a re-analysis of the deposited data

How the results depend on the processing

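Of 166 tested values of the 10 genes under the alternatives, 148 kept their direction and side of the threshold, 15 kept their direction but no longer passed and 3 reversed. The 10 log2 ratios without a pseudocount have no test and kept their direction. The reversals were Tead2 as deposited (-0.33) and Lats1 as deposited (-0.42) and with protein-coding TPM (-0.087). Amot, Amotl1, Amotl2, Tead1, Tead4 and Lats2 stayed lower and past the threshold under every alternative that tested them. The number of the 10 genes called lower was 5 with a filter of 5 TPM, which tests fewer genes, and from 6 to 8 with 1 sample left out. Calls of higher genes among the 10 numbered 0 as deposited, with protein-coding TPM and with no filter, and from 0 to 1 with 1 sample left out. Target genes called lower were from 13 to 15 with 1 WT sample left out. With the filter of 5 TPM they were 9, which were all the target genes that reached it. Ccn1, Ptpn14 and others reached it through WT alone. That filter left Amot, Tead4, Lats1 and Lats2 of the 10 genes untested.

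Other Hippo pathway genes called lower were 43 as deposited, 28 with protein-coding TPM and from 9 to 14 with 1 sample left out (9 without WT sample 2 or C3G null sample 1). Those called higher were 0 as deposited, with protein-coding TPM, with no filter and without the trend, 7 with the length and GC correction, and from 0 to 3 with 1 sample left out. Over all genes, lower calls were 7109 as deposited, 3732 with protein-coding TPM, 1145 with the filter of 5 TPM and from 1385 to 1880 with 1 sample left out. Higher calls were 181, 707 and, with 1 sample left out, from 909 to 1579. The cause of these differences was not tested.

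Lats2 minus the median of its neighbours (-0.25) was 0.051 as deposited, 0.0091 with quantile normalization, -0.16 with protein-coding TPM, -1.10 and 0.080 with pseudocounts of 0.1 and 5, -0.53 with no filter, -0.076 with the length and GC correction, -0.23 with the filter on mean TPM, -1.41 without a pseudocount, and from -0.29 to -0.21 with 1 sample left out. The Lats2 share differed by -21.7 points with the length and GC correction. With 1 sample left out the differences in share ranged from -24.7 to -23.1 points for Lats2, from -9.00 to -7.95 for Amotl1, from -1.93 to -1.29 for Wwtr1 and from 17.9 to 21.4 for Tead2.

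WT and C3G null samples shared replicate numbers 1 and 2, which gives only 2 pairs, and nothing in the labels says that a number marks a shared culture or day. Deviations from the group means correlated at -0.179 for number 1 and 0.181 for number 2. With 2 C3G null samples their deviations mirror each other, so such values say little on pairing. The largest correlation, 0.334, was between WT sample 3 and C3G null sample 1, which share no number. The replicate block was therefore kept only as an alternative. With the replicate block, Yap1 was lost (adjusted p = 0.0714), other Hippo pathway genes called higher were 0, and Lats2 minus its neighbours was -0.23. With the replicate block and the length and GC correction together, Yap1 (0.155) and Wwtr1 (0.0621) were lost, other Hippo pathway genes were 9 lower and 2 higher, lower calls over all genes were 1341, and Lats2 minus its neighbours was -0.049.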
